A study of Rattus norvegicus with 6 samples.

Results

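The interleukins and their receptors were followed through the cell types of fibrotic and control rat lungs. The family was taken from the gene names of the count table: every symbol made of Il and a digit, without Il33, Il1rl1, Il1a, Il1b, Il18, Il1rn and Il1r2. This gave 55 members among 16383 genes with values. The members are ligands, receptor chains and a few soluble or decoy binding proteins, and Il4i1, a member by its symbol alone, codes for an amino acid oxidase. The choice goes by names alone and sets no threshold on a measured value.

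Lungs came from Sprague Dawley rats that were obtained at 8 to 10 weeks of age. In the BLM group, 3 rats received 1 dose of bleomycin (BLM, 5 mg/kg) through a tube into the trachea, and in the control group 3 rats received saline in the same volume. BLM breaks DNA and is widely used to produce lung fibrosis in rodents. All lungs were taken on day 28, small pieces were digested, and single cells were sequenced on the BD Rhapsody system, in which each transcript carries a unique molecular identifier (UMI). Each rat is 1 library, so the p-values below measure only the spread between these 6 samples.

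Interleukins are secreted proteins through which leukocytes, epithelium and stroma instruct each other, and their receptors are pairs or trios of chains that signal through Janus kinases and STAT proteins or, for the IL-1, IL-18 and IL-17 families, through adaptor proteins that activate NF-kB. Several receptors share a chain: the common gamma chain (Il2rg) serves IL-2, IL-4, IL-7, IL-9, IL-15 and IL-21, and gp130 (Il6st) serves IL-6, IL-11 and their relatives. In the lung, IL-23 made by myeloid cells sustains T cells that secrete IL-17A and IL-22, which act on epithelium and stroma, and IL-4 and IL-13 act on macrophages and fibroblasts.

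Of the 55 members, 43 had an entry in the RefSeq promoter table (GRCr8). The 250 bases before the annotated start are shown for 4 genes of the IL-23, IL-17 and IL-2 axes that the results turn on. Il17a lies on the plus strand (chr9:30640594-30640843), and Il17f (chr9:30697919-30698168), Il2ra (chr17:71808476-71808725) and Il23a (chr7:1308435-1308684) on the minus strand. Each is written 5′ to 3′ on the strand of its gene, and capitals mark matches to AGGTCA (the half-site bound by ROR nuclear receptors) and to TATAAA (the TATA box), each searched on both strands.
Il17a: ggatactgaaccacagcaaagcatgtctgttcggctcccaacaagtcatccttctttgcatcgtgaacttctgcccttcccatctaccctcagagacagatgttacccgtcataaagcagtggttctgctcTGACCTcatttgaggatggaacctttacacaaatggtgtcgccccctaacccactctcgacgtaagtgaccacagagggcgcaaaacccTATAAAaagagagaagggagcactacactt
Il17f: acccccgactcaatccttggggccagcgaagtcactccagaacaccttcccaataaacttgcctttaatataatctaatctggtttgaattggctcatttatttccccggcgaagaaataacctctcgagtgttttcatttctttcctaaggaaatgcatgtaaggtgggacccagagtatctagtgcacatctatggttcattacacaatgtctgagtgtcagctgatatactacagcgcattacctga
Il2ra: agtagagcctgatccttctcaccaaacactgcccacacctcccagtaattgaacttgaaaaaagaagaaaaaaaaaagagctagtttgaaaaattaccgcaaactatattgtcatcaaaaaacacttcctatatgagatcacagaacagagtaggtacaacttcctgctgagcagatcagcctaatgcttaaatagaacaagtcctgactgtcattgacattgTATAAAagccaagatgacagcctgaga
Il23a: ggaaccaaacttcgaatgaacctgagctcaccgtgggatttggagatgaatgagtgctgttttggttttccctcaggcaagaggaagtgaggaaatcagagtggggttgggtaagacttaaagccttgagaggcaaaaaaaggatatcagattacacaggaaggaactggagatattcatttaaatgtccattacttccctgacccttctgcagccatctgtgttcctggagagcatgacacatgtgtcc
AGGTCA was found in the Il17a window on the opposite strand, from 119 to 114 bases before the start, and TATAAA from 30 to 25 bases before it. The Il2ra window held TATAAA from 27 to 22 bases before the start. The letters of neither motif stood in the windows of Il17f and Il23a. Over all 33469 promoters of the same length, 14.06% held AGGTCA and 12.93% held TATAAA, and among the 43 members 11 and 6 did. A match is a description of letters only.

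The table held 25547 cells, 2568 to 7481 per rat, with a median of 1066 to 1840 UMIs per cell. The members took 76449 of 57053330 UMIs, 0.12% to 0.155% per rat. In all, 314 of 25232 cell barcodes occurred in more than 1 library (629 cells). Clustering without any Il gene gave 30 clusters, of which 3 kept a number only and the rest formed 23 classes named by likeness to fixed markers; "T cell" below therefore means T cell-like, and so on. The classes differed in size between groups: interstitial macrophages made up 8.98% of the cells in BLM-treated and 1.88% in control lungs (mean over rats), fibroblasts 6.30% and 0.435%, endothelial cells 11.8% and 1.89%, and mesothelial cells 5.10% and 1.14%. The mesothelial share was 1.64%, 2.54% and 11.1% in BLM-treated and 1.57%, 1.09% and 0.761% in control rats. Its BLM mean thus rested largely on BLM-treated rat 3. Cluster 4, which lay closest to alveolar macrophages but stayed unnamed, made up 1.67% in BLM-treated and 13.7% in control lungs. Shares of cells were not tested.

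Receptor chains had sharply different cellular addresses. Levels are counts per 1000000 UMIs of the class in a rat (CPM), and levels of different genes are not compared, since no length correction was made. In the heat map of levels by class, lymphocytes carried the chains of the IL-2 family. Il2rb, the beta chain of the IL-2 and IL-15 receptors, averaged 2859.7 ± 72.0 CPM in NK cells of BLM-treated and 2579.6 ± 86.8 CPM in those of control rats (SD, n = 3 each), and 77.2% of its UMIs lay in NK cells. Il2rg averaged 798 ± 67.1 CPM in T cells of BLM-treated and 729.6 ± 122 CPM in those of control rats, and 742 ± 47.8 and 723 ± 45.9 CPM in NK cells. The means of T and NK cells for Il2rg overlapped within their SDs, and these classes were not tested against each other.

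**Figure D1:**
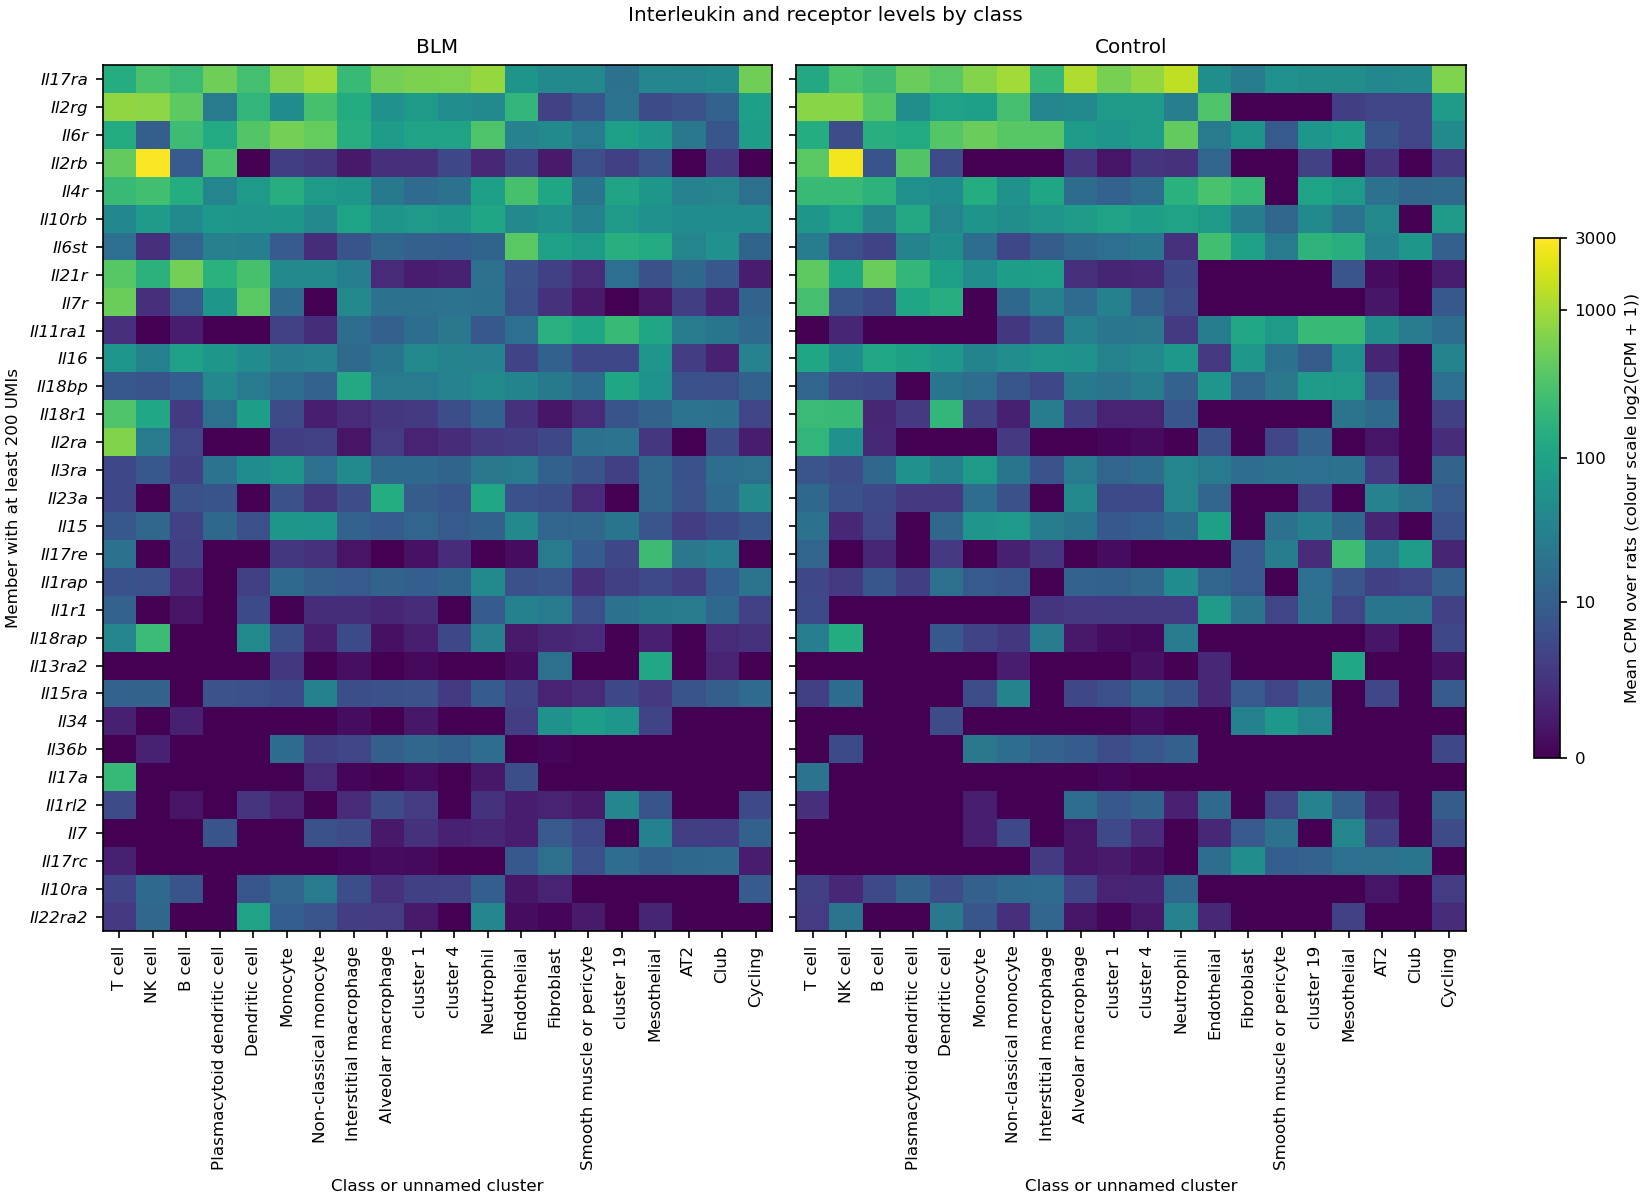
Mean CPM over the rats of a group (colour, log2(CPM + 1) scale) of the 31 members with at least 200 UMIs (rows, ordered by UMIs) in 20 classes or unnamed clusters (columns), BLM-treated rats on the left and control rats on the right. Il2rb stands out in NK cells, Il2ra and Il17a in T cells, Il17re and Il13ra2 in mesothelial cells, and Il23a in alveolar macrophages and neutrophils.

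Il21r, the IL-21 receptor, was highest in B cells (569 ± 239 CPM in BLM-treated and 479 ± 58.4 in control rats, SD, n = 3 each), followed by T cells (379 ± 157 and 408 ± 93.2 CPM), and the 2 classes overlapped over the rats. Il7r, the IL-7 receptor that keeps T cells alive, had 503 ± 199 CPM in T cells of BLM-treated and 280.3 ± 88.1 CPM in those of control rats, and 380.4 ± 257 and 148 ± 128 CPM in dendritic cells. Il18r1, the ligand-binding chain for IL-18, was led by T cells among the classes with 3 rats in each group (328 ± 79.8 and 233 ± 49.8 CPM). Its partner Il18rap was led by NK cells (232 ± 54.0 and 138 ± 42.2 CPM).

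Myeloid cells carried Il17ra and Il6r, single chains of the receptors for IL-17A and IL-6, whose partners Il17rc and Il6st are given below. Both chains also had enough counts to be tested in B cells, T cells and endothelial cells. Il17ra, the chain common to most IL-17 receptors, took 22760 of the members' UMIs and had 999 ± 122 CPM in non-classical monocytes of BLM-treated and 975 ± 52.7 CPM in those of control rats, and 832 ± 114 and 1377 ± 155 CPM in neutrophils. Il6r, the IL-6 receptor, was highest in monocytes (555 ± 27.3 and 479 ± 69.2 CPM). Il10rb, shared by the receptors of IL-10, IL-22 and the lambda interferons, was spread over many classes, with 111 ± 25.0 and 98.5 ± 29.3 CPM in neutrophils.

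Stromal cells and mesothelium carried another set. Il6st was led by endothelial cells among the classes with 3 rats in each group (389.8 ± 124 CPM in BLM-treated and 264 ± 103 CPM in control rats, SD). Il4r, the alpha chain for IL-4 and IL-13, was highest there as well (293 ± 29.4 and 296 ± 105 CPM). Il11ra1, the IL-11 receptor, had 229 ± 85.5 and 223 ± 137 CPM in cluster 19, an unnamed stromal cluster led by Mylk, Tagln and Col3a1, and 161 ± 50.6 CPM in fibroblasts of 3 BLM-treated and 117 ± 47.8 CPM in those of 2 control rats. Mesothelial cells held 67.2% of the UMIs of Il17re, the receptor for IL-17C, and 86.8% of those of Il13ra2, the decoy receptor for IL-13. Tuft cells, the chemosensory epithelium that makes IL-25, were too few to test, and Il17rb, the receptor chain for IL-25, reached 292, 603 and 339.7 CPM in those of the 3 control rats.

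Further receptors and binding proteins were found at lower counts. Il3ra had 62.1 ± 29.0 CPM in monocytes of BLM-treated and 77.8 ± 4.87 CPM in those of control rats (SD, n = 3 each). Il1rap, the accessory chain of the IL-1 and IL-36 receptors, was led by neutrophils (43.5 ± 26.5 and 46.3 ± 4.77 CPM), and Il1r1, the IL-1 receptor, by endothelial cells (32.8 ± 10.8 and 74.3 ± 34.4 CPM). Il15ra and Il10ra, the private chains for IL-15 and IL-10, were led by non-classical monocytes (32.8 ± 23.0 and 34.5 ± 17.8 CPM for Il15ra, 26.3 ± 12.2 and 14.4 ± 6.06 CPM for Il10ra). Il22ra2, a soluble protein that captures IL-22, had 99.7 ± 109 and 23.5 ± 7.08 CPM in dendritic cells. Il1rl2, the IL-36 receptor, had 39.8 ± 60.0 and 33.4 ± 29.2 CPM in cluster 19, and Il17rc, the partner of Il17ra, had 17.9 ± 5.61 CPM in fibroblasts of 3 BLM-treated and 50.2 ± 71.0 CPM in those of 2 control rats.

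Of the 55 members, 31 had at least 200 UMIs and 24 fewer, and Il5 had under 10. Among the sparse receptors, T cells held 121 of 194 UMIs of Il27ra, 108 of 143 of Il9r and 64 of 107 of Il23r, and NK cells held 64 of 93 of Il12rb2, a chain of the IL-12 receptor. Mesothelial cells held 74 of 99 UMIs of Il22ra1, the IL-22 receptor, and B cells 18 of 28 of Il5ra and 64 of 152 of Il4i1. Il20rb (161), Il13ra1 (157) and Il12rb1 (49) were spread more widely.

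The ligands came mostly from few classes, as the plot of the share of UMIs by class shows. T cells held 303 of 321 UMIs of Il17a, 80 of 89 of Il17f and 80 of 84 of Il22. They also held 27 of 36 UMIs of Il2, the T cell growth factor. Il4 had 51 UMIs, 28 of them in basophils or mast cells, and Il5 had 5 UMIs in all cells together. Of 19 UMIs of Il12b, the subunit shared by IL-12 and IL-23, dendritic cells held 16.

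**Figure D2:**
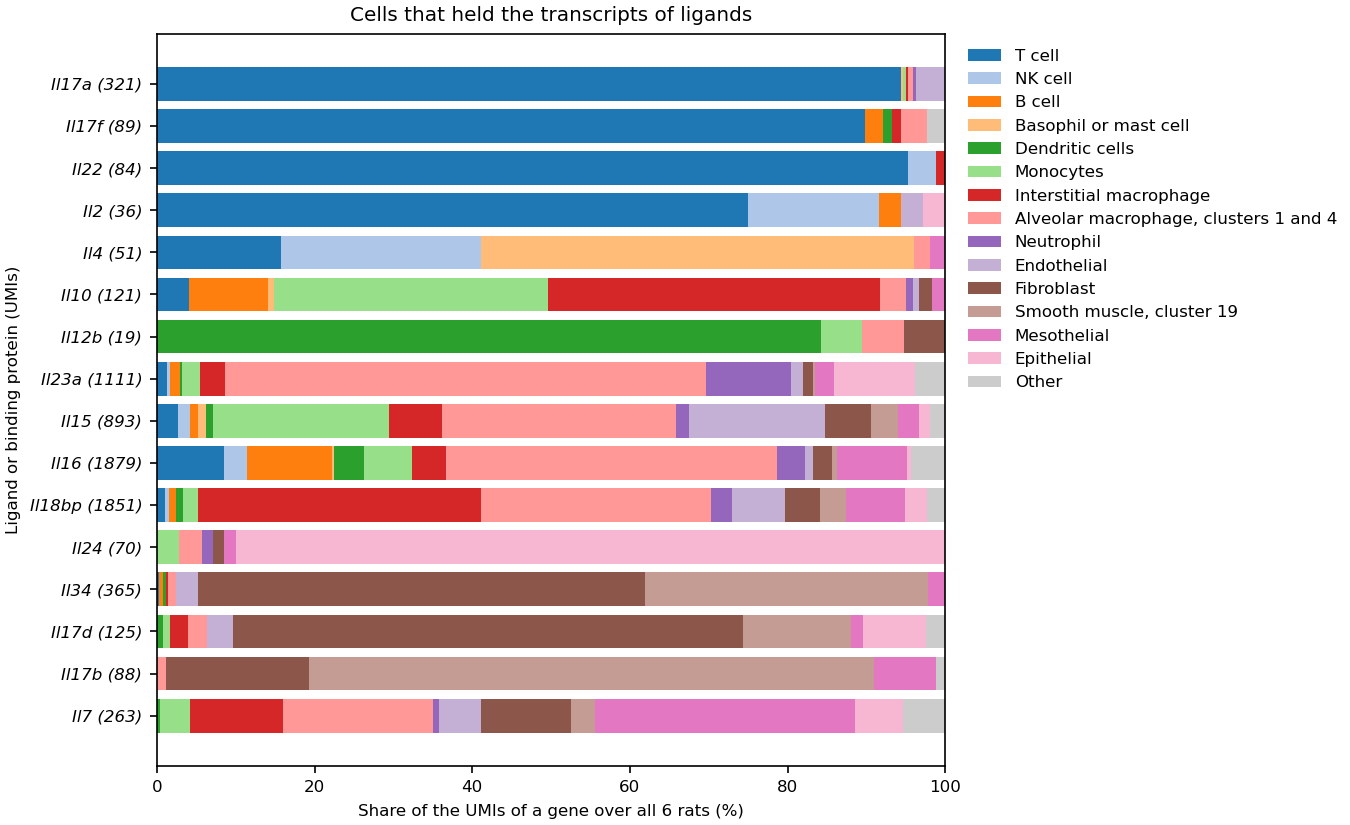
Share of all UMIs of a gene over the 6 rats (x axis, %) that each class held (colours), for 16 ligands or binding proteins (rows, number of UMIs in brackets). T cells held over 89% of the UMIs of Il17a, Il17f and Il22, and fibroblasts with smooth muscle cells and cluster 19 held most of those of Il34, Il17d and Il17b.

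Il23a, the p19 subunit of IL-23, had 1111 UMIs, of which 592 lay in alveolar macrophages and 119 in neutrophils. Structural cells held other ligands. Fibroblasts held 207 of 365 UMIs of Il34, a ligand of the CSF-1 receptor, and 81 of 125 of Il17d, and smooth muscle cells or pericytes 42 of 88 of Il17b. Club cells held 51 of 70 UMIs of Il24, of which 41 lay in BLM-treated rat 2 alone. Il10 had 121 UMIs, of which interstitial macrophages held 51 and non-classical monocytes 37. The remaining ligands were sparse: Il27 had 60, Il12a 45 and Il11 42 UMIs. Il15 had 66.8 ± 44.6 CPM in non-classical monocytes of BLM-treated and 72.2 ± 19.1 CPM in those of control rats, Il16 98.2 ± 27.4 and 118 ± 21.6 CPM in B cells, Il7 32.9 ± 11 and 38.2 ± 16.4 CPM in mesothelial cells and Il36b, an IL-36 ligand, 16.1 ± 1.31 and 22.9 ± 8.98 CPM in monocytes (SD, n = 3 each). The pooled shares weight each rat by its cells: over rats, the mean share of T cells was 76.6 ± 42.9% for Il17a (SD, n = 5 rats with a UMI) and 75.1 ± 38.1% for Il17f (n = 6). For Il34 the mean share of fibroblasts was 32.6 ± 30.03% and for Il17d 41.2 ± 38.6%, for Il24 that of club cells 40.8 ± 38.5%, and for Il23a that of alveolar macrophages 42.0 ± 25.0% (n = 6 each).

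BLM was compared with control within each class by edgeR's quasi-likelihood test on UMIs summed per rat, and p-values were adjusted by Benjamini-Hochberg across the genes tested in that class, with a threshold of 0.05 (a call). A class needed at least 10 cells in 2 rats of each group: 6 classes were not tested, AT2 cells had 2 BLM-treated rats, and club cells, fibroblasts and smooth muscle cells or pericytes had 2 control rats. In 20 classes or unnamed clusters, 33 members could be tested in at least 1, giving 166 tests. There were 16 calls of 12 members, 7 higher and 9 lower in BLM, in T cells, interstitial macrophages, alveolar macrophages, neutrophils and cluster 1. At an unadjusted p under 0.05 the number was 45. The share of all genes at that unadjusted cut is not given, so nothing is read from this or the later unadjusted counts. In the other 15 units, edgeR called 0 of 106 members tested, 19 had an unadjusted p under 0.05, and DESeq2 called 0. Few genes of any kind were called in many of these: in either direction 1.27% in AT2 cells, 0.234% in B cells, 0.112% in club cells, 0.0479% in dendritic cells, 0.0468% in NK cells, 0.391% in monocytes, 0.498% in non-classical monocytes, 0.463% in plasmacytoid dendritic cells and 1.22% in fibroblasts. The share was 2.09% in mesothelial cells, 3.32% in smooth muscle cells or pericytes, 3.55% in cluster 4, 5.05% in cluster 19, 6.16% in cycling cells and 6.73% in endothelial cells.

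T cells of BLM-treated lungs carried more of the transcripts of Il2ra, the high-affinity IL-2 receptor chain found on activated and regulatory T cells, and of Il17a. Of 17 members tested, 2 were higher and 0 lower, while 0.574% of all genes tested in T cells were called higher. Il2ra had 532, 573 and 846 CPM in BLM-treated and 226, 172 and 187 CPM in control rats. All 3 BLM-treated rats lay above all control rats. The difference was 1.75 on the log2 scale (SE 0.21, adjusted p = 0.000985, edgeR). It was called under every alternative that kept the T cell class whole, and its clusters alone are given below. With every cell thinned to 500 UMIs, 20.6% of 1377 T cells of BLM-treated and 9.35% of 620 T cells of control rats held an Il2ra UMI (28.3% and 13% unthinned). In B cells, which should lack it, the thinned shares were 0.341% and 0 of 595 cells, which allows up to 0.504%. The median UMIs per cell were 850.0 and 987.5 in T cells and 600.0 and 577 in B cells.

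Il17a had 326, 139 and 180.0 CPM in T cells of BLM-treated rats, against 61.2, 0 and 0 CPM in those of control rats. The counts behind these were 125, 98 and 60 UMIs in BLM-treated rats and 20, 0 and 0 in control rats, and a count of 0 allows up to 17.8 CPM in control rat 2 and 13.1 CPM in control rat 3. The groups did not overlap. The fitted difference was 3.02 on the log2 scale (SE 0.57, adjusted p = 0.0153, edgeR). It rested on few cells: 12, 19 and 15 T cells with an Il17a UMI in BLM-treated rats and 4, 0 and 0 in control rats, and 1 cell held 72 of the 303 UMIs. The call was lost with DESeq2 (adjusted p = 0.618) and without BLM-treated rat 1, control rat 2 or control rat 3. After thinning, 2.54% of T cells of BLM-treated and 0.323% of those of control rats held an Il17a UMI (3.01% and 0.571% unthinned), and 0 of 1173 and 0 of 595 B cells did, which allows up to 0.256% and 0.504%. Intervals and limits of this kind cover counting error only.

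**Figure D3:**
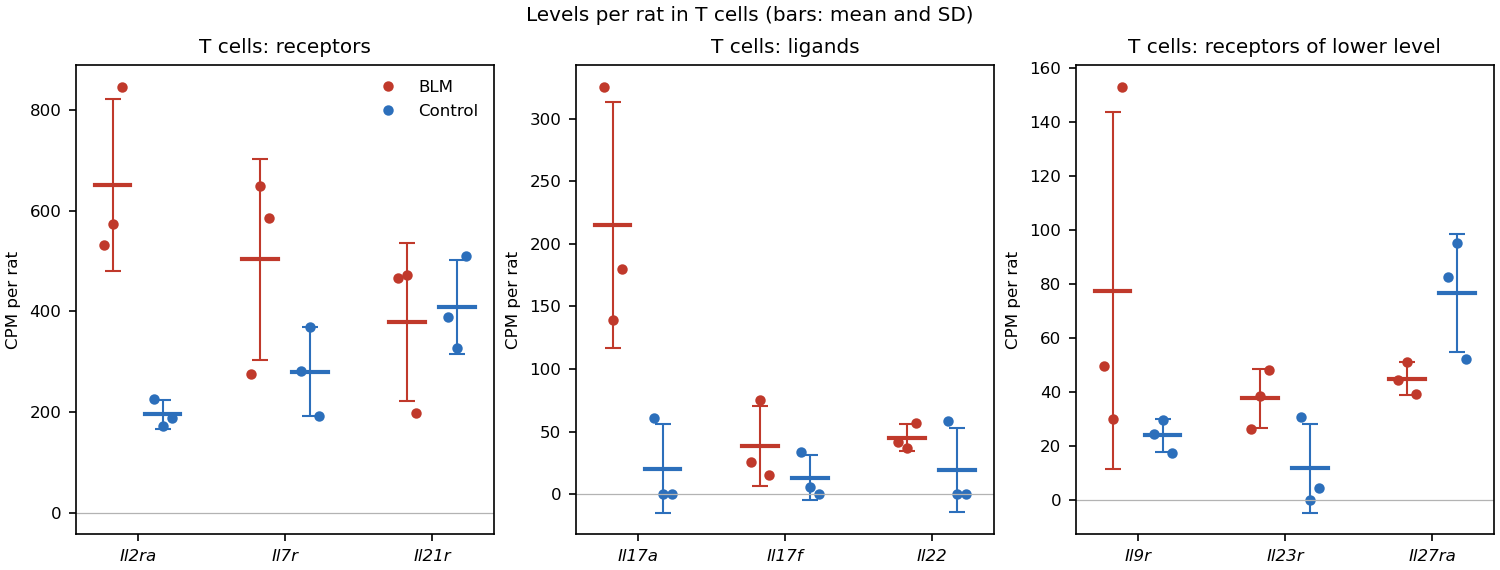
CPM per rat in T cells (y axis) of 9 members (x axis), BLM-treated rats in red and control rats in blue, points for rats, bars for the mean and SD (n = 3 each). Il2ra and Il17a do not overlap between the groups, while Il7r, Il21r, Il17f, Il22 and Il23r do.

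The cells with Il17a were few and close together. Of 50 T cells with an Il17a UMI, 45 lay in cluster 17, with Gata3 and Icos among its leading genes, and 5 in cluster 5, led by Cd3g, Cd3e and Lef1. Il17f, its close relative, was detected in 16 T cells, of which 12 also held Il17a, that is 75.0% of the Il17f cells and 24.0% of the Il17a cells. Of 48 T cells with a UMI of Il23r, the IL-23 receptor, 15 held Il17a, and of 29 with Il22, 3 did (10.3%). Among all 2227 T cells 50 held Il17a, and among the 623 of cluster 17, 45 did. Il2ra was found in 31 of the 50 (62.0%), and in 328 of all 623 cells of cluster 17. These overlaps are within cells of 6 rats and are descriptions.

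The split into the 2 T cell clusters touches both calls, since cluster 17 had 502 BLM and 121 control cells and cluster 5 had 1025 and 579. Within cluster 5 alone, Il2ra had 218, 274 and 263 CPM in BLM-treated and 97.0, 50.8 and 86.9 CPM in control rats and was called again (log2 difference 1.65, SE 0.25, adjusted p = 0.00566, edgeR), where 0.306% of all genes were called higher. Within cluster 17 it was 0.87 (adjusted p = 0.0821), and Il17a was 2.04 (adjusted p = 0.188). The 6 measured T cell markers summed to 2424 to 3490 CPM in BLM-treated and 3756 to 4164 CPM in control rats, and 8 transcripts abundant in some lung class (such as Sftpc, Scgb1a1 and Lyz2) to 654 to 1862 and 1821 to 2493 CPM, and their part in these results was not tested.

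Other members of the axis were too few or too variable. Il17f had 26.1, 75.2 and 15 CPM in T cells of BLM-treated and 33.6, 5.93 and 0 CPM in those of control rats. Il22 had 41.7, 36.9 and 57.0 CPM in BLM-treated and 58.1, 0 and 0 CPM in control rats (log2 difference 0.85, SE 0.65, adjusted p = 0.681, edgeR). Control rat 1 overlapped the BLM-treated rats for both genes, and the same rat held all UMIs of Il17a in control T cells. Il23r had 26.1, 38.3 and 48.0 CPM in BLM-treated and 30.6, 0 and 4.36 CPM in control rats. Il7r had 276, 649 and 585 CPM in BLM-treated and 281, 368 and 192 CPM in control rats (0.91, SE 0.28, adjusted p = 0.143, edgeR). Il9r, the IL-9 receptor, had 49.5, 29.8 and 153 CPM in BLM-treated and 24.5, 29.7 and 17.4 CPM in control rats, so that the groups touched and BLM-treated rat 3 stood far above the rest (Il9r was too sparse to be tested in the class). Il27ra, the IL-27 receptor, had 44.3, 51.1 and 39.0 CPM in BLM-treated and 82.6, 94.9 and 52.3 CPM in control rats, without overlap, and was not called (-0.68, SE 0.31, adjusted p = 0.386, edgeR).

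Interstitial macrophages held the largest number of calls. Of 10 members tested, Il18bp, Il2rg and Il3ra were higher and Il6r, Il21r and Il16 lower in BLM-treated rats, against 9.57% of all genes tested called higher and 9.11% lower. Il18bp, the soluble protein that captures IL-18, had 159, 132 and 80.9 CPM in BLM-treated and 13.9, 0 and 0 CPM in control rats. This stands on 662 UMIs in BLM-treated and 2 in control rats, a ratio per UMI of the class of 21.5 with an exact 95% counting interval of 5.93 to 178. The groups did not overlap, and the adjusted p was 0.000383 (edgeR). The 2 control rats without a UMI allow up to 40.4 and 26.3 CPM. After thinning, 4.58% of the cells of BLM-treated and 0 of 171 of those of control rats held an Il18bp UMI, which allows up to 1.75% (21.2% and 1.04% unthinned, at medians of 3104 and 1714 UMIs), and in B cells, at medians of 600.0 and 577 UMIs, the shares were 0.171% and 0.336%.

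Il2rg had 113, 155 and 141 CPM in interstitial macrophages of BLM-treated and 20.8, 13.5 and 78.8 CPM in those of control rats (log2 difference 1.93, SE 0.41, adjusted p = 0.00395, edgeR). All BLM-treated rats were above control rat 3, the highest control. Il3ra, the IL-3 receptor chain, had 50.8, 33.2 and 49.5 CPM in BLM-treated and 6.93, 13.5 and 0 CPM in control rats, from 202 and 2 UMIs, a ratio of 6.56 (95% counting interval 1.79 to 54.5, adjusted p = 0.0117, edgeR). It was not called without control rat 1 or control rat 3.

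Il6r had 117, 141 and 175 CPM in interstitial macrophages of BLM-treated and 416, 242 and 464 CPM in those of control rats (log2 difference -1.30, SE 0.24, adjusted p = 0.00143, edgeR). Il21r had 22.1, 23.3 and 45.9 CPM in BLM-treated and 111, 53.8 and 105 CPM in control rats (-1.60, SE 0.40, adjusted p = 0.0103). Il16, a chemoattractant for CD4+ cells cut from a larger precursor, had 14.4, 7.98 and 21.7 CPM in BLM-treated and 62.4, 80.8 and 43.8 CPM in control rats (-2.08, SE 0.51, adjusted p = 0.00956). All 3 were without overlap between the groups. Il21r lost its call at a clustering resolution of 0.5 and without control rat 1 or control rat 3, and Il16 without control rat 1 or control rat 2.

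This class consisted of different cells in the 2 groups. Cluster 10, led by Spp1, Apoe and C1qa, had 979 BLM and 8 control cells, and cluster 16, led by C1qc, C1qa and C1qb with Lyve1, had 503 BLM and 184 control cells. The study annotated macrophages high in Spp1 and Trem2 as alveolar, and whether cluster 10 holds the same cells was not tested. Il18bp had 182, 149 and 107 CPM in cluster 10 of BLM-treated rats, where control cells were too few. In cluster 16 it had 20.2, 33.7 and 26.1 CPM in BLM-treated and 14.6, 0 and 0 CPM in control rats. Il6r was 87.2 to 100.3 CPM in cluster 10 of BLM-treated rats, while in cluster 16 it was 296 to 381 CPM in BLM-treated and 253 to 498 CPM in control rats (log2 difference -0.22, adjusted p = 0.796). Il21r in cluster 16 differed by -0.05 (adjusted p = 0.979). Il2rg was 42.1 to 53.7 CPM in cluster 16 of BLM-treated and 14.0 to 56.4 CPM in that of control rats, so there the groups overlapped. The summed level of the 10 class markers was 24008 to 31009 CPM in BLM-treated and 12346 to 14640 CPM in control rats. The 6 calls thus belong to a class whose makeup differed, and within cluster 16 neither Il6r nor Il21r was called.

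Alveolar macrophages of BLM-treated rats had more Il23a and less Il17ra, Il16 and Il11ra1. Of 11 members tested 1 was higher and 3 were lower, against 8.01% of all genes called higher and 10.6% lower. Il23a had 159.7, 78.9 and 188 CPM in BLM-treated and 51.6, 12.3 and 62.9 CPM in control rats. The lowest BLM-treated rat was above the highest control rat (log2 difference 1.65, SE 0.42, adjusted p = 0.0209, edgeR), but the call was lost without BLM-treated rat 1, BLM-treated rat 3 or control rat 1. After thinning, 3.29% of alveolar macrophages of BLM-treated and 0.750% of those of control rats held an Il23a UMI (16.3% and 3.56% unthinned, at medians of 4677 and 1046.5 UMIs), and in B cells the share was 0.597% and 0 of 595.

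Il17ra had 596, 518 and 588 CPM in alveolar macrophages of BLM-treated and 1135, 1512 and 857 CPM in those of control rats (log2 difference -1.05, SE 0.22, adjusted p = 0.00941, edgeR). Il16 had 23.7, 19.9 and 20.5 CPM in BLM-treated and 56.1, 78.9 and 38.5 CPM in control rats (-1.40, SE 0.30, adjusted p = 0.00906). Il11ra1 had 7.39, 9.52 and 15 CPM in BLM-treated and 31.4, 44.4 and 21.0 CPM in control rats (-1.64, SE 0.38, adjusted p = 0.0139), from 42 and 44 UMIs. None of the 3 overlapped between the groups. Il11ra1 was not called without BLM-treated rat 1 or 2, Il17ra not without BLM-treated rat 2 and not at resolution 0.5, and Il16 at neither other resolution nor with Il genes kept in the clustering, where its difference lay between -0.60 and -0.40.

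Here too the groups filled different clusters. Cluster 9 (led by Prodh2, Siglec10 and Krt79, median 889 UMIs) had 188 BLM and 807 control cells, and cluster 11 (led by Ccl9, Olr1 and Nlrp3, median 5171 UMIs) had 824 BLM and 93 control cells. Of the called members, Il17ra differed by -0.65 in cluster 9 (adjusted p = 0.0614) and by -0.18 in cluster 11 (adjusted p = 0.627, without control rat 2, which had 1 cell there), and Il23a by 0.51 in cluster 11 (adjusted p = 0.505). Il23a was counted in 187 cells of cluster 11 and in 10 of cluster 9. With clusters 1, 4, 9 and 11, those closest to alveolar macrophages, summed (a choice made after seeing the data), Il23a had 86.5, 46.9 and 63.0 CPM in BLM-treated and 9.60, 8.82 and 7.56 CPM in control rats (log2 difference 2.90, SE 0.25, adjusted p = 0.000103, edgeR). The union keeps the shift of cluster 11 between the groups (824 BLM and 93 control cells). The part of that shift in the Il23a difference was not tested. In that union 6.6% of all genes were called higher and 4.71% lower, and among members Il11ra1 (-0.78, adjusted p = 0.0493) and Il1rl2 (-1.63, adjusted p = 0.0174) were lower, while Il17ra (-0.41, adjusted p = 0.174) and Il16 (-0.40, adjusted p = 0.194) were not called.

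Marker sums moved with the group in this class as well. The 10 alveolar macrophage markers summed to 11489 to 13102 CPM in BLM-treated and 6099 to 9918 CPM in control rats, and the 7 measured B cell markers to 45.3 to 72.5 and 325 to 648 CPM. The 6 plasmacytoid dendritic cell markers summed to 243 to 394 and 639.8 to 2094 CPM. The 8 dendritic cell markers summed to 377 to 474 and 9.86 to 29.2 CPM, and 1 of them, Clec10a, made up 369.9 to 464 CPM of this in BLM-treated and 0 to 26.9 CPM in control rats. The same 8 abundant transcripts, of which Lyz2 is a macrophage gene itself, summed to 20585 to 31796 and 46959 to 52702 CPM. Their part in the 4 calls was not tested.

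Neutrophils of BLM-treated rats had less Il17ra and Il16. Of 6 members tested 2 were lower, against 7.91% of all genes called lower, and 0 were higher by edgeR and by DESeq2 (4 of the 6 had an unadjusted p under 0.05). Il17ra had 836, 716 and 945 CPM in BLM-treated and 1504, 1423 and 1204 CPM in control rats (log2 difference -0.87, SE 0.22, adjusted p = 0.0175, edgeR), without overlap. Il16 had 22.6, 31.3 and 46.7 CPM in BLM-treated and 79.2, 71.9 and 61.5 CPM in control rats (-1.19, SE 0.39, adjusted p = 0.0491), also without overlap. The Il17ra call was lost without BLM-treated rat 2 or control rat 1, and the Il16 call, which lay at the threshold, under 11 of 16 alternatives, among them leaving out any of 5 of the 6 rats, DESeq2, no filter, cells of at least 500 UMIs only, resolution 0.5 and adjustment over all classes. Il23a, not called, had 63.3, 96.1 and 187 CPM in BLM-treated and 17.6, 50.3 and 45.3 CPM in control rats (1.33, SE 0.45, adjusted p = 0.0568). The 8 neutrophil markers themselves summed to 7795 to 15796 CPM in BLM-treated and 30615 to 36279 CPM in control rats, and the 10 interstitial macrophage markers to 4942 to 8954 and 978 to 2557 CPM, and their part in these values was not tested.

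**Figure D4:**
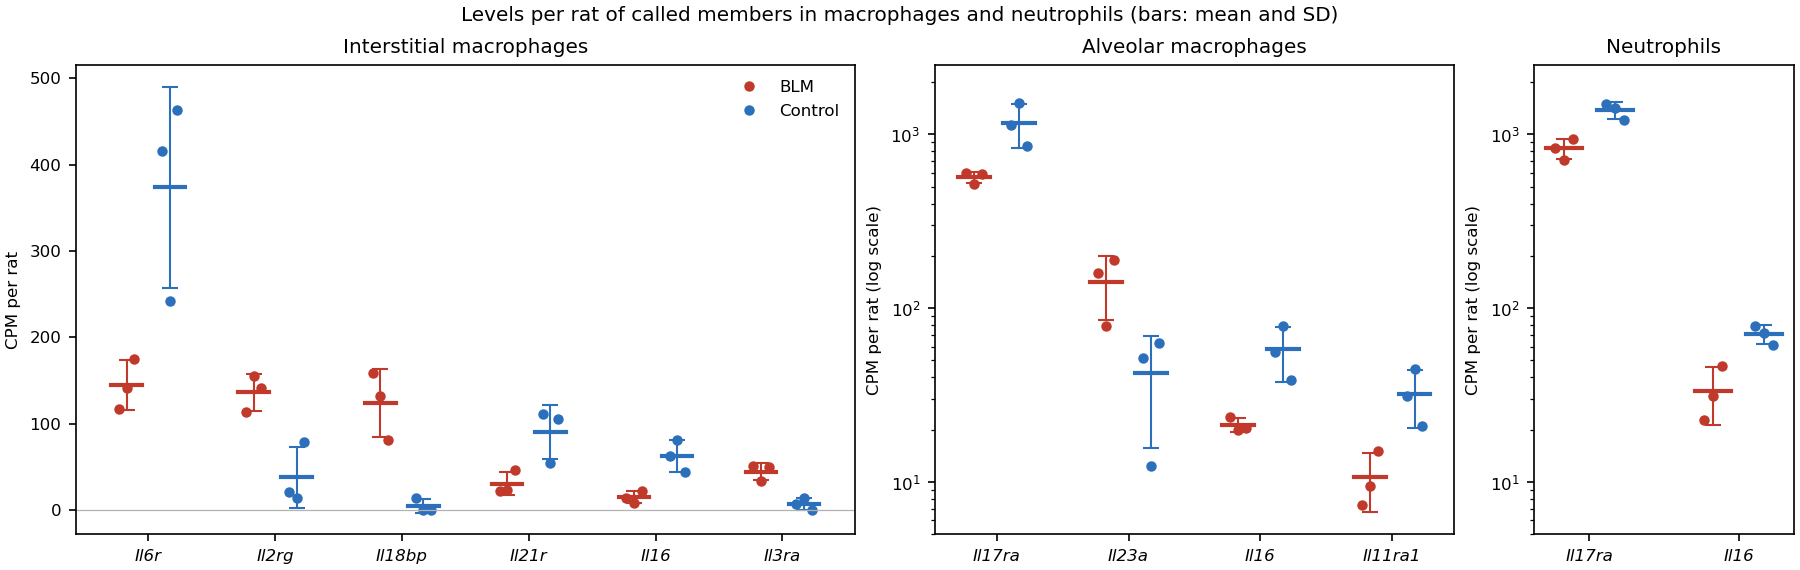
CPM per rat (y axis; linear for interstitial macrophages, log scale for the other panels) of the members called in interstitial macrophages, alveolar macrophages and neutrophils, BLM-treated rats in red, control rats in blue, bars for mean and SD (n = 3 each). Il16 is lower in BLM-treated rats in all 3 panels, and Il17ra in alveolar macrophages (518 to 596 CPM in BLM-treated and 857 to 1512 CPM in control rats) and neutrophils.

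In cluster 1, which lay close to alveolar macrophages but stayed unnamed because its leading genes held Cxcr1 and Fcrla, markers of other classes, and none of its own, 1 of 16 members was higher and 1 lower, against 4.61% of all genes called higher and 5.43% lower. Il6r had 107, 95.4 and 94.5 CPM in BLM-treated and 71.6, 67.7 and 59.5 CPM in control rats (log2 difference 0.50, SE 0.14, adjusted p = 0.0367, edgeR). Il10rb had 68.3, 69.3 and 86.2 CPM in BLM-treated and 95.9, 104 and 104 CPM in control rats (-0.53, SE 0.14, adjusted p = 0.0242). Neither overlapped between the groups, and neither was called by DESeq2. Leaving out any of 5 rats ended the Il6r call and any of 4 the Il10rb call. Both were also lost with Il genes kept in the clustering, where the Il10rb difference was -0.15, and Il6r at resolution 2.0 and with adjustment over all classes.

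Whether a BLM effect differed between classes was tested in joint fits of 2 classes with the rat as a term. Each of the 62 pairs holds a class in which the member had been called, so the 51 calls among 141 tests of members follow in part from that choice, and nothing is read from them against the 4.89% called among all tests in these fits. The Il6r effect in interstitial macrophages was lower than that in cluster 1, monocytes, T cells and 6 further classes, 9 of 14 tested. That of Il2rg was higher than in 10 of 11 other classes and that of Il18bp than in 5 of 6. The Il17ra effect in alveolar macrophages was lower than that in interstitial macrophages by 1.19 on the log2 scale (SE 0.27, adjusted p = 0.00150, edgeR) and lower than in 4 further classes of 18, and the same count held for neutrophils. Il17a and Il2ra could be tested in T cells alone. For interstitial and alveolar macrophages the cluster makeup described above enters these differences too.

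Sums over all cells of a rat give the lung level, in which fewer cells of a type and less RNA per cell cannot be told apart. Of 48 members tested there, 6 were higher and 3 lower in BLM-treated rats, against 11.1% of all genes called higher and 6.33% lower, and 14 had an unadjusted p under 0.05. The median log2 difference of the members was 0.38, beside -0.0054 for all genes. Il34 had 8.17, 10.1 and 11.5 CPM in BLM-treated and 0.264, 2.59 and 1.48 CPM in control rats (2.85, SE 0.52, adjusted p = 0.0105, edgeR). Within fibroblasts, which held 56.7% of its UMIs, it had 62.6, 46.0 and 67.2 CPM in BLM-treated and 0 and 66.4 CPM in 2 control rats (0.75, SE 0.76, adjusted p = 0.719), and within smooth muscle cells or pericytes 62.2, 88.2 and 104 CPM and 78.9 and 60.9 CPM. Its levels in these 2 classes overlapped between the groups, with only 2 control rats in each. The fibroblast share of cells was 6.30% in BLM-treated and 0.435% in control lungs, and its part in the Il34 difference was not tested.

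**Figure D5:**
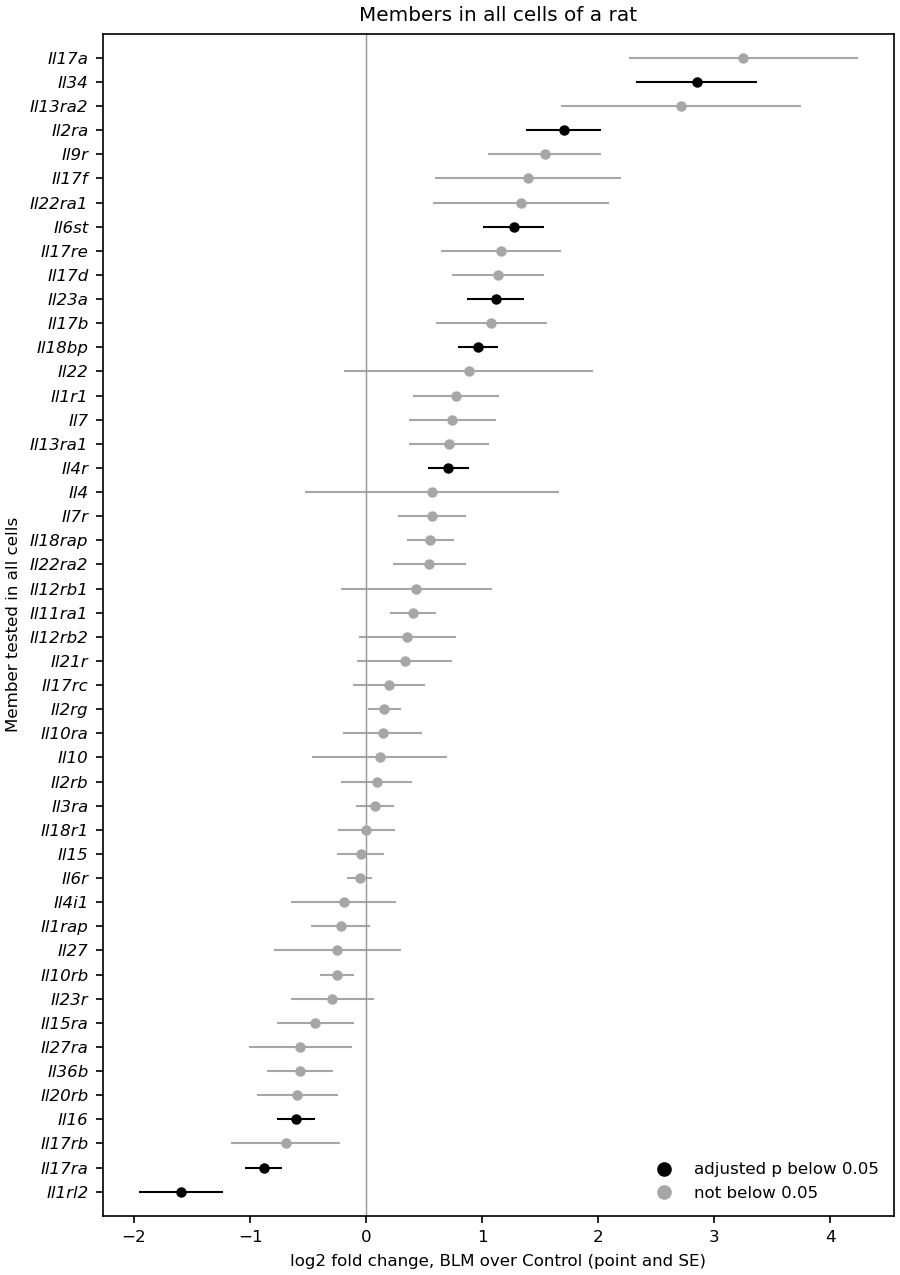
Log2 difference, BLM over control (x axis, point and SE), of 48 members in the UMIs of all cells of a rat (rows, n = 3 rats each), black where the adjusted p was below 0.05. Il34, Il2ra, Il6st, Il23a, Il18bp and Il4r are higher and Il16, Il17ra and Il1rl2 lower, and Il17a has the largest estimate (3.25, SE 0.99) without passing the threshold.

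Il2ra had 28.5, 28.4 and 36.2 CPM over all cells of BLM-treated and 13.9, 9.33 and 4.93 CPM over those of control rats (1.70, SE 0.32, adjusted p = 0.0118, edgeR). Il18bp had 43.7, 44.1 and 33.9 CPM in BLM-treated and 22.7, 19.9 and 18.1 CPM in control rats (0.96, SE 0.17, adjusted p = 0.00933). Il17ra had 369.9, 269 and 299 CPM in BLM-treated and 578, 624 and 485 CPM in control rats (-0.88, SE 0.16, adjusted p = 0.0108). These 3 and Il34 were called under every alternative. Il23a had 35.5, 18.6 and 26.7 CPM in BLM-treated and 11.3, 12.4 and 12.1 CPM in control rats (1.12, SE 0.25, adjusted p = 0.0200) and Il6st 46.1, 64.7 and 103 and 26.9, 34.7 and 24.6 CPM (1.27, SE 0.26, adjusted p = 0.0155). Both lost the call without control rat 1 or control rat 3.

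Il4r had 88.7, 76.8 and 103 CPM over all cells of BLM-treated and 52.9, 69.2 and 39.6 CPM over those of control rats (0.71, SE 0.18, adjusted p = 0.0312, edgeR). In no class was Il4r called, and its endothelial level was 283, 270.4 and 326 CPM in BLM-treated and 417, 235 and 236 CPM in control rats. Il16 had 30.3, 24.3 and 32.5 CPM in BLM-treated and 44.6, 51.6 and 33.6 CPM in control rats (-0.61, SE 0.16, adjusted p = 0.0391). Il1rl2, the IL-36 receptor chain, had 2.47, 2.17 and 3.42 CPM in BLM-treated and 4.62, 8.55 and 10.02 CPM in control rats (-1.60, SE 0.36, adjusted p = 0.0216). All 9 called members were without overlap between the groups. Il4r lost its call without any of 4 rats, Il16 without any of 5, and Il1rl2 without BLM-treated rat 1 or 2 or control rat 3.

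Il17a over all cells had 17.1, 6.08 and 6.85 CPM in BLM-treated and 2.77, 0.259 and 0 CPM in control rats and did not pass the threshold (3.25, SE 0.99, adjusted p = 0.0584, edgeR). Il13ra2 had 5.69, 2.05 and 37.7 CPM in BLM-treated and 2.77, 3.11 and 1.07 CPM in control rats (2.71, SE 1.03, adjusted p = 0.115), with the difference resting on BLM-treated rat 3. In mesothelial cells, which held most of it, it had 108, 17.2 and 242 CPM in BLM-treated and 114, 158 and 93.7 CPM in control rats (0.08, SE 0.70, adjusted p = 0.986). Il17re in the same cells had 247, 239 and 232 CPM in BLM-treated and 211, 369.7 and 177 CPM in control rats, and overlapped.

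Endothelial cells had no call over the whole class. Il6st had 272, 378 and 519 CPM in endothelial cells of BLM-treated and 265, 367 and 160.1 CPM in those of control rats (0.85, SE 0.31, adjusted p = 0.134, edgeR). In cluster 3 alone, the main endothelial cluster, it had 288, 397 and 564 CPM in BLM-treated and 259, 309 and 153 CPM in control rats and was called (1.09, SE 0.32, adjusted p = 0.0418), where 4.53% of all genes were called higher, though the groups overlapped. Il15, which sustains NK and memory T cells, had 42.1, 36.7 and 48.2 CPM in endothelial cells of BLM-treated and 114, 58.7 and 105 CPM in those of control rats (-1.07, SE 0.34, adjusted p = 0.0717). Il23a in AT2 cells had 6.96 and 6.44 CPM in 2 BLM-treated and 24.6, 24.4 and 51.0 CPM in 3 control rats, from 2 and 92 UMIs (adjusted p = 0.269). Il21r in dendritic cells had 436, 239 and 189 CPM in BLM-treated and 115, 61.8 and 109 CPM in control rats without overlap (1.56, SE 0.41, adjusted p = 0.662). In dendritic cells of these 6 rats the test called almost no gene.

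The 4 sets of genes fixed around the pathway, none of them members, were read in the same fits, in which 11.1% of all genes were called higher and 6.33% lower over all cells. Values over all cells also hold the differing sizes of the classes, whose part in them was not tested. Of 22 receptor partners and related cytokines, 20 were tested over all cells, 2 higher and 3 lower: Osmr, the oncostatin M receptor that pairs with gp130, by 2.28 and Csf1 by 0.92 on the log2 scale, and Csf2 (-1.53), Ptpn6 (-0.87) and Crlf2 (-0.54). Osm, its ligand, was higher in alveolar macrophages (1.76), cluster 1 (1.33) and cycling cells (1.09) and lower in neutrophils (-0.94). Csf1r, the receptor of IL-34, was lower in interstitial macrophages (-1.47) and higher in cluster 1 (0.59). The part of the differing cluster makeup of interstitial macrophages in the value there was not tested. Of 17 Janus kinases, STATs and feedback genes tested over all cells, 1 was higher and 0 lower: Socs1, an inhibitor of Janus kinases (0.86). Cish, induced by STAT5, was higher in monocytes (2.21), endothelial cells (1.59) and alveolar macrophages (0.93), and in the last of these Stat5a itself was lower (-0.82).

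Of 15 genes known to respond to IL-4 and IL-13 that were tested over all cells, 6 were higher and 0 lower, led by Clca1 (5.82), Ccl11 (3.90) and Ccl24 (3.02). Club cells made up 1.79% of the cells in BLM-treated and 0.432% in control lungs, and fibroblasts 6.30% and 0.435%. The part of these class sizes in the sums was not tested. Within fibroblasts 0 of 6 tested genes of the list were called, and within club cells 1 of 3, which was higher. Clec10a, a lectin of alternatively activated macrophages and of dendritic cells, was higher by 5.05 in alveolar macrophages, 4.52 in cluster 1, 4.83 in cluster 4, 6.13 in cycling cells and 3.78 in neutrophils. In interstitial macrophages Arg1 (5.82) and Tgm2 (3.18) were higher and Ccl17 (-2.58) lower, where 9.57% of all genes were called higher and 9.11% lower. The cluster makeup of that class differed between the groups, and its part in these values was not tested. Tgm2 was also higher in neutrophils (2.11) but lower in cluster 1 (-1.34), cluster 4 (-1.32) and smooth muscle cells or pericytes (-1.15), where Postn was lower too (-3.53) and 0 of 6 tested genes of the list were higher. Of 7 tested genes known to respond to IL-17 and IL-6, 3 were higher over all cells, Timp1 (2.70), Cxcl2 (0.92) and Bcl3 (0.90), and 1 was lower, Ccl20 (-2.10). The chemokine Cxcl1 was higher in endothelial cells (2.54), cycling cells (2.97) and neutrophils (1.81), and lower in interstitial macrophages (-1.13) and AT2 cells (-1.35). Lcn2, a classical IL-17 target, was higher in mesothelial cells (4.83) and lower in neutrophils (-2.35). The neutrophil class of BLM-treated rats had lower neutrophil and higher interstitial macrophage marker sums, as given above. The part of those sums in the neutrophil values here was not tested.

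For the 5 members with most UMIs, the 3 genes with the most similar pattern were found by Pearson's r of log2(CPM + 1) over 132 rat-and-class values, which share rats and cells and so carry no p. Il17ra was closest to Syk (0.828), Gpsm3 (0.826) and Hcls1 (0.824), and Il2rg to Fli1 (0.819), Gmfg (0.763) and B2m (0.759). Il2rb was closest to Xcl1 (0.854), Cd96 (0.844) and Klrd1 (0.789), genes known from NK and T cells. Il6r was closest to N4bp2l1 (0.697), Rgs19 (0.661) and Gm2a (0.66), and Il4r to Lysmd3 (0.641), RT1.S3 (0.624) and Crebrf (0.61).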

How the data were processed

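Single cells of 3 BLM-treated and 3 control rat lungs were measured by BD Rhapsody. UMI counts per gene and cell were deposited as the authors' table, and were used as raw counts. The submitters' processing notes name mm9, a mouse assembly, while the gene names of the table include rat symbols such as RT1.S3. Which assembly was used was not checked, and the aligner was not given in the sources used here. Cell names ending in F1 to F3 were read as BLM and N1 to N3 as control, because their numbers sum to the study's 15009 and 10538 cells. In this table the values stand 1 field to the right of the header names.

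Counts were normalised to 10000 per cell, and 2000 variable genes without Il symbols, 30 principal components, 15 neighbours and Leiden clustering at resolution 1.0 (scanpy 1.11.5, leidenalg 0.10.2) were used. A cluster took the class whose markers it raised most, unless its 10 leading genes held more markers of another class than of its own or its marker evidence or depth was too thin. Scrublet called 99 cells (0.388%), so it has not worked, and no cell was removed in the main results. UMIs were summed per rat and class (at least 10 cells) and tested with edgeR 4.0.16 (R 4.3.3), filterByExpr, TMM scaling, quasi-likelihood and Benjamini-Hochberg adjustment at 0.05. The step was checked on simulated data. As alternatives, DESeq2 1.42.0, a fit with all genes kept, scaling by RLE, a replicate block, each rat left out in turn, doublet and depth filters and other clusterings were run. Members called, members with at least 200 UMIs with their leading classes, and ligands with at least 10 UMIs were named. The members and lists were chosen with earlier results of these data known.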

Additional observations from a re-analysis of the deposited data

Results flagged for a closer look

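Results are given here where the BLM effect on a member in 1 class differed from its effect in another class, by edgeR's quasi-likelihood test of the class by treatment term with the rat as a term and adjustment over all genes of that fit. Each pair was chosen through a call in one of its classes. The cluster makeup of interstitial and alveolar macrophages differed between the groups, and its part in these differences was not tested. Within cluster 16 alone, Il6r (-0.22, adjusted p = 0.796) and Il21r (-0.05, adjusted p = 0.979) were not called by edgeR. In interstitial macrophages the effect on Il2rg was higher than in 10 of 11 other classes (by 1.69 to 2.79 on the log2 scale), that on Il18bp in 5 of 6 (4.27 to 5.21) and that on Il3ra in 3 of 4 (3.15 to 3.77). The effect on Il6r was lower there than in 9 of 14 other classes (-2.32 to -1.28), that on Il21r than in 4 of 7 (-3.08 to -1.53) and that on Il16 than in 3 of 10 (-2.15 to -1.98).

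In alveolar macrophages the effect on Il17ra was lower than in 5 of 18 other classes (-1.23 to -0.96), that on Il11ra1 than in 2 of 8 (-2.60 to -2.09) and that on Il16 than in 1 of 10 (-1.40). The effect on Il23a was higher than in 1 of 3, AT2 cells (4.15). In neutrophils the effect on Il17ra was lower than in 5 of 18 (-1.14 to -0.93) and that on Il16 than in 1 of 10 (-1.53). In cluster 1 the effect on Il6r was higher than in 2 of 14 (1.18 and 1.80) and that on Il10rb lower than in 1 of 13 (-1.39).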

How the results depend on the processing

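The numbers here count calls, and a member can be called in several classes. Within classes 7 calls were higher and 9 lower, and over all cells 6 and 3. Without the filter on low counts 14 calls were higher within classes. With each cluster tested alone, an alternative chosen after seeing the data, 3 calls were higher and 3 lower. Leaving out 1 rat gave 4 to 7 higher and 3 to 11 lower within classes, and 3 to 7 higher and 1 to 2 lower over all cells. With a replicate block 6 were higher and 6 lower within classes and 6 and 2 over all cells. The numbers do not pair the rats (correlations of same-numbered rats 0.102, -0.058 and -0.127). DESeq2 called 5 and 7 within classes and 7 and 3 over all cells. Removing the 5% of cells with the highest doublet score and joining 4 macrophage clusters were also chosen after seeing the data. No call changed direction. Of 25 calls, 8 were kept under every alternative that tested whole classes or all cells. They were Il17ra, Il18bp, Il2ra and Il34 over all cells, Il18bp, Il2rg and Il6r in interstitial macrophages, and Il2ra in T cells. With clusters tested alone (edgeR), Il6r was not called in cluster 16 (adjusted p = 0.796). Il2ra was called in cluster 5 but not in cluster 17 (adjusted p = 0.0821). Il18bp and Il2rg could be tested in neither cluster 10 nor cluster 16. With 3 rats a group and members at 0.12% to 0.155% of the UMIs, 22 members could be tested in no class and 7 not over all cells either.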
